A study of Mus musculus with 12 samples.

Results

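The complement and antigen presentation genes form a list of 36 gene symbols, 15 of complement and 21 of the major histocompatibility complex (MHC) and its processing machinery. Of these, 34 were matched to an array probe by the gene name in the scanner files: 14 complement genes and 20 antigen presentation genes, out of 37306 gene names on the array. C1s and H2-Q6 had no probe of that name and have no value here. Each gene was read from the brightest of its probes. All 34 were well above background on all 12 arrays, and none was saturated.

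The study asked how loss of presenilins in cholinergic neurons changes gene expression in the brain of young mice. The double knockout (DKO) mice, ChatCre-PS1flox/flox-PS2-/-, carry a Cre recombinase driven by the choline acetyltransferase gene (Chat) that deletes floxed presenilin 1 in cholinergic cells, on a background without presenilin 2 in any cell. The control (Con) mice, Cre--PS1flox/flox-PS2+/-, carry the same floxed presenilin 1 alleles and no Cre, and they keep 1 working copy of presenilin 2. DKO and Con therefore differ in the Cre allele and in presenilin 2 everywhere, as well as in presenilin 1 in cholinergic cells. Basal forebrain and cerebral cortex were taken from 3 DKO and 3 Con mice aged 2 months, which gave 4 groups of 3 arrays, 1 array per mouse and region.

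Values are log2 signal intensities minus the 75th percentile of the same array, called levels below. Levels of different probes are not comparable with each other. A gene was called where the Benjamini-Hochberg adjusted p of limma's moderated test, over all genes of the comparison, was under 0.05. In bulk tissue, fewer cells of a type and less RNA per cell cannot be told apart.

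Several facts about the arrays bear on everything below. Psen2, the gene of presenilin 2, lay between -1.86 and -1.25 on the 6 DKO arrays and between 0.25 and 0.50 on the 6 Con arrays, as the labels state. Chat, the marker of cholinergic neurons, was higher in basal forebrain than in cortex by 2.16 in DKO and 1.95 in Con mice. All mice are labelled male, but RNA of DKO mice 1 and 3 carried high Xist and low Y-linked transcripts in both regions, unlike DKO mouse 2 and the 3 Con mice. The arrays lay on 2 slides. The whole basal forebrain set was on slide 1, together with cortex of DKO mice 1 and 2. Slide 2 carried only cortex, from DKO mouse 3 and the 3 Con mice. In Con mice, region and slide therefore cannot be told apart.

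Complement is a cascade of plasma and tissue proteins. The C1 complex (C1q, C1r, C1s) starts the classical pathway, C4 and C2 form its convertase, factor B and properdin drive the alternative pathway, and both routes converge on C3, whose fragments opsonise targets and signal through receptors. In the brain, microglia are the main source of C1q, and C1q and C3 tag synapses for removal during development and in disease models. MHC class I molecules present peptides cut by the immunoproteasome and carried by the Tap transporter to cytotoxic T cells, while class II molecules, loaded with the help of Cd74 and H2-DM, present to helper T cells and are made mainly by professional antigen-presenting cells. Ciita and Nlrc5 are the master coactivators of class II and class I genes. Both are recruited by a protein complex bound to a conserved promoter module.

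Upstream sequences of 25 of the 36 list symbols were in the RefSeq table for build GRCm38.p6, H2-Q6 among them. The 5 shown were picked from genes with region differences described below, or for the shared class I light chain. All 5 carry the module defined next, so they do not represent the list. Each line gives the 250 bases before the annotated start, 5′ to 3′ on the gene's strand. Capitals mark a module of TGANG, a gap of 18 to 22 bases, and ATTGG. The module was searched for on both strands and was chosen after these sequences had been read. H2-Aa lies at chr17:34287824-34288073 on the minus strand, H2-Eb1 at chr17:34305617-34305866, H2-DMb1 at chr17:34152941-34153190 and H2-D1 at chr17:35262844-35263093 on the plus strand, and B2m at chr2:122147437-122147686 on the plus strand.
H2-Aa: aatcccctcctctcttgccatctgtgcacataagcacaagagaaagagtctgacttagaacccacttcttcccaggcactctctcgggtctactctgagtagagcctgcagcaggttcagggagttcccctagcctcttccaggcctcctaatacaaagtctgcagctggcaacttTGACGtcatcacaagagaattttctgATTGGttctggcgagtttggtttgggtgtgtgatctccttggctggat
H2-Eb1: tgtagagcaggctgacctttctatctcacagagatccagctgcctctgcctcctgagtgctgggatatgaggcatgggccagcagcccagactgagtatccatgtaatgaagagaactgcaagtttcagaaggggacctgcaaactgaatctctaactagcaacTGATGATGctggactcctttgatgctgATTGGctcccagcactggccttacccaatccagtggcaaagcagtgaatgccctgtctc
H2-DMb1: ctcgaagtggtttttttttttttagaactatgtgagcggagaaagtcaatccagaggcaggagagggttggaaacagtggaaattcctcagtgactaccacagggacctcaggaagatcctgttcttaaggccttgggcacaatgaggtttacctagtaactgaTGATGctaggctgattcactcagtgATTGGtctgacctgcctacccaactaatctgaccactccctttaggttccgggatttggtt
H2-D1: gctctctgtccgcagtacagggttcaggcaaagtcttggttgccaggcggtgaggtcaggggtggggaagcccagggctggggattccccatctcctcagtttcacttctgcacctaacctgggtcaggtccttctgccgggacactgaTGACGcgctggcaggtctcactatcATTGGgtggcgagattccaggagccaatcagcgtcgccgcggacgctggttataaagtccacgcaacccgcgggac
B2m: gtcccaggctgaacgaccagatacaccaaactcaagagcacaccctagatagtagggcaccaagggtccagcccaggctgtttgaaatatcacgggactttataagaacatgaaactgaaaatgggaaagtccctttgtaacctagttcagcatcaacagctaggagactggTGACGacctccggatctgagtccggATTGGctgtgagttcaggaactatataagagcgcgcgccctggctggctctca
The module stood in the windows of 9 of the 25 genes (B2m, H2-Aa, H2-D1, H2-DMb1, H2-Eb1, H2-K1, H2-M3, H2-Q6 and H2-Q7), all of them MHC chains or chaperones, against 1.26% of 32851 windows of the same length. The bare letters ATTGG, which are part of the module, were in 16 of 25 and in 33.8% of all windows. A match is a description of these letters and not evidence of binding. Of the 8 that were measured, H2-Aa and H2-Eb1 were among the genes with the largest regional differences, and H2-M3 was not called. C1ra, H2-Q4 and Tap1 had no module in their windows. Their regional differences in DKO mice were -1.425, 1.305 and 0.629, larger in size than that of H2-DMb1 (0.453), which had the module.

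None of the 34 genes was called between DKO and Con mice in basal forebrain, in cortex or in the mean of both regions by limma. Of all genes, 0.0306% were called in basal forebrain, 0.0116% in cortex and 0.156% in the mean of both regions, so few calls were made anywhere. At an unadjusted p under 0.05 the members counted 3 in basal forebrain (2 higher and 1 lower in DKO, where 4.39% of all genes passed), 8 in cortex (all higher in DKO, where 18.9% of all genes passed, 6.82% of all genes as higher) and 4 in the mean of both regions (3 higher and 1 lower, where 4.42% of all genes passed as higher and 6.33% as lower). The DKO and Con values did not overlap for 3 members in basal forebrain and 7 in cortex, against 9.95% and 22.4% of all genes. The complement genes had a median difference, DKO minus Con, of 0.04 in basal forebrain and 0.09 in cortex on the log2 scale, and the antigen presentation genes of -0.02 and 0.14. The median of all genes was 0.00 in basal forebrain and -0.05 in cortex.

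Cfb, complement factor B, the protease of the alternative pathway convertase, had the largest genotype difference of the list in each region. Its level in basal forebrain was -2.22, -3.01 and -3.39 in the DKO mice, against -3.70, -3.54 and -3.88 in the Con mice. In cortex it was -3.25, -2.60 and -4.30 in the DKO mice, against -5.22, -4.94 and -5.04 in the Con mice. All DKO values lay above all Con values in both regions, and the DKO mice varied more among themselves than the Con mice. The log2 difference was 0.83 (SE 0.30, adjusted p = 0.97, limma) in basal forebrain and 1.69 (SE 0.39, 95% interval 0.77 to 2.60, adjusted p = 0.26, limma) in cortex. In cortex DKO mouse 3, the one DKO array on the slide of the Con arrays, was the lowest of the 3, and its value minus the mean of the Con mice was 0.77. A second probe of Cfb gave 0.96 in basal forebrain. In cortex that probe was not well above background on any Con array or on that of DKO mouse 3.

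**Figure D1:**
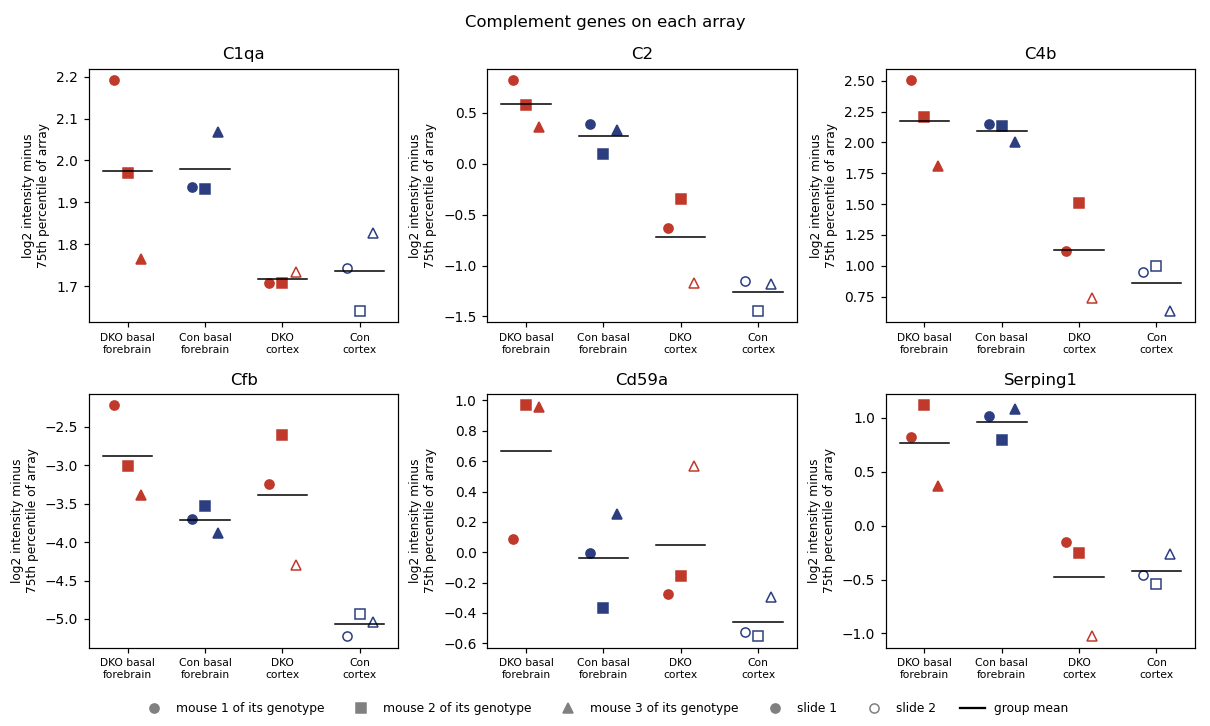
Levels (log2 intensity minus the array's 75th percentile) of 6 complement genes on each of the 12 arrays, by group on the x axis; circle, square and triangle are mice 1, 2 and 3, filled points slide 1, hollow points slide 2, and the line is the group mean. Cfb is higher in every DKO mouse than in any Con mouse in both regions, and C2, C4b and Serping1 are higher in basal forebrain than in cortex in both genotypes.

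C2, the protease of the classical convertase, had smaller differences than Cfb. C2 levels in basal forebrain were 0.82, 0.57 and 0.37 in DKO mice and 0.39, 0.10 and 0.33 in Con mice. In cortex they were -0.63, -0.35 and -1.17 in DKO mice and -1.15, -1.44 and -1.18 in Con mice. The groups overlapped in both regions, with differences of 0.31 (SE 0.14) and 0.55 (SE 0.20) and limma adjusted p of 0.97 and 0.26. Within slide 2, the cortex difference of C2 was 0.09.

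Cd59a, which blocks the membrane attack complex on the cell surface, was at 0.08, 0.97 and 0.96 in DKO basal forebrain and at -0.01, -0.37 and 0.26 in Con basal forebrain. In cortex its levels were -0.27, -0.16 and 0.57 in DKO mice and -0.53, -0.55 and -0.29 in Con mice. The groups did not overlap in cortex and overlapped in basal forebrain. The differences were 0.71 (SE 0.27, adjusted p = 0.97, limma) and 0.50 (SE 0.21, adjusted p = 0.26, limma), and the second Cd59a probe gave 0.55 and 0.50. In contrast to Cfb and C2, the cortex array of DKO mouse 3 was the highest of its group for Cd59a, 1.02 above the mean of the Con mice.

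The C1 genes showed no such separation. C1qa, C1qb and C1qc, the chains of C1q, differed between genotypes by -0.16 to 0.15 in cortex and by -0.01 to 0.01 in basal forebrain. C1ra, a protease of the C1 complex, differed by 0.10 in basal forebrain and by 0.33 (SE 0.14, adjusted p = 0.26, limma) in cortex. Within slide 2 the cortex difference of C1ra was 0.05. C4b, the C4 of the classical pathway, differed by 0.08 and 0.26, with overlapping groups in each region. C3 was higher in all DKO than in all Con mice in basal forebrain, at -1.22, -1.38 and -1.49 against -1.88, -1.56 and -1.54, but its cortex difference was -0.18 and the second C3 probe gave 0.51 there. Properdin (Cfp), the anaphylatoxin receptors C3ar1 and C5ar1 and the regulators Serping1 and Cd55 had differences between -0.20 and 0.44 across both regions, none with an unadjusted p under 0.05.

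Among the class I chains, B2m, the light chain shared by all class I molecules, was lower in all DKO than in all Con mice in both regions. Its level was 3.85, 3.82 and 3.64 in DKO basal forebrain against 3.92, 4.04 and 4.07 in Con basal forebrain. In cortex it was 4.003, 3.95 and 4.06 in DKO mice against 4.12, 4.15 and 4.07 in Con mice. The differences were small, -0.24 (SE 0.08) and -0.11 (SE 0.06), with limma adjusted p of 0.97 and 0.30, and a second, dimmer B2m probe had the opposite sign (0.45 and 0.39).

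H2-T23, which encodes the non-classical class I molecule Qa-1, was higher in all DKO than in all Con cortices, at 2.70, 2.70 and 2.45 against 2.27, 2.26 and 2.27. In basal forebrain it was at 2.45, 2.38 and 2.07 in DKO mice and at 2.17, 2.31 and 2.42 in Con mice, fully overlapping. The cortex difference was 0.35 (SE 0.08, adjusted p = 0.26, limma), and it was 0.18 within slide 2. A second H2-T23 probe had the opposite sign in cortex, -0.25, and the mean over both probes was 0.05. H2-D1, a classical class I heavy chain, showed a similar layout: a cortex difference of 0.37 (SE 0.13, adjusted p = 0.26, limma), of 0.07 within slide 2, and of -0.01 in basal forebrain. H2-K1, H2-Q4, H2-Q7 and H2-M3 had cortex differences between -0.09 and 0.28. The class I genes have near-identical copies in the MHC, and whether their probes separate the copies was not tested.

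Of the class I processing genes, Tap1 and Tap2, the subunits of the peptide transporter, were higher in all DKO than in all Con cortices, by 0.30 and 0.27 (SE 0.12 each, limma adjusted p of 0.26 and 0.27). Within slide 2 their cortex differences were 0.17 and 0.10. Tapbp, the bridge between transporter and class I chain, the immunoproteasome subunits Psmb8 and Psmb9, and Nlrc5 differed by -0.03 to 0.10 in cortex. In basal forebrain all 6 processing genes differed by -0.06 to 0.23, with overlapping groups.

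The class II genes had opposite signs in the regions. In basal forebrain 6 of 7 had a negative difference (median -0.32), while 51.1% of all genes were above 0 there. In cortex 7 of 7 had a positive difference (median 0.17), while 41.5% of all genes were above 0. No class II gene was called by limma in either region, and only Cd74 in cortex had an unadjusted p under 0.05. The list was proposed with earlier results of these data known, so the count of signs is a description. It did not hold with fewer mice or on 1 slide. With DKO mouse 2 as the only DKO mouse, H2-Aa, H2-Ab1, H2-Eb1, H2-DMb1 and Cd74 were at 0.02, 0.09, 0.07, 0.20 and 0.23 in basal forebrain, and within slide 2, H2-Aa, H2-Eb1 and H2-DMa were at -0.06, -0.09 and -0.15 in cortex.

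Cd74, the invariant chain that escorts class II molecules, was at 0.06, 0.96 and 0.20 in DKO basal forebrain and at 0.09, 1.23 and 0.86 in Con basal forebrain. In cortex it was at -0.73, 0.09 and -0.98 in DKO mice and at -1.57, -1.05 and -1.27 in Con mice. The cortex groups did not overlap, with a difference of 0.76 (SE 0.27, adjusted p = 0.26, limma), and DKO mouse 3 differed from the Con mean by 0.32. H2-Ab1, the beta chain of class II I-A, was at 0.14, 0.71 and -0.45 in DKO cortex and at -0.78, -0.03 and -0.56 in Con cortex, a difference of 0.59 (SE 0.30, adjusted p = 0.30, limma). The H2-Ab1 difference was 0.01 within slide 2, and 0.40 to 0.59 over its 4 probes with all arrays.

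**Figure D2:**
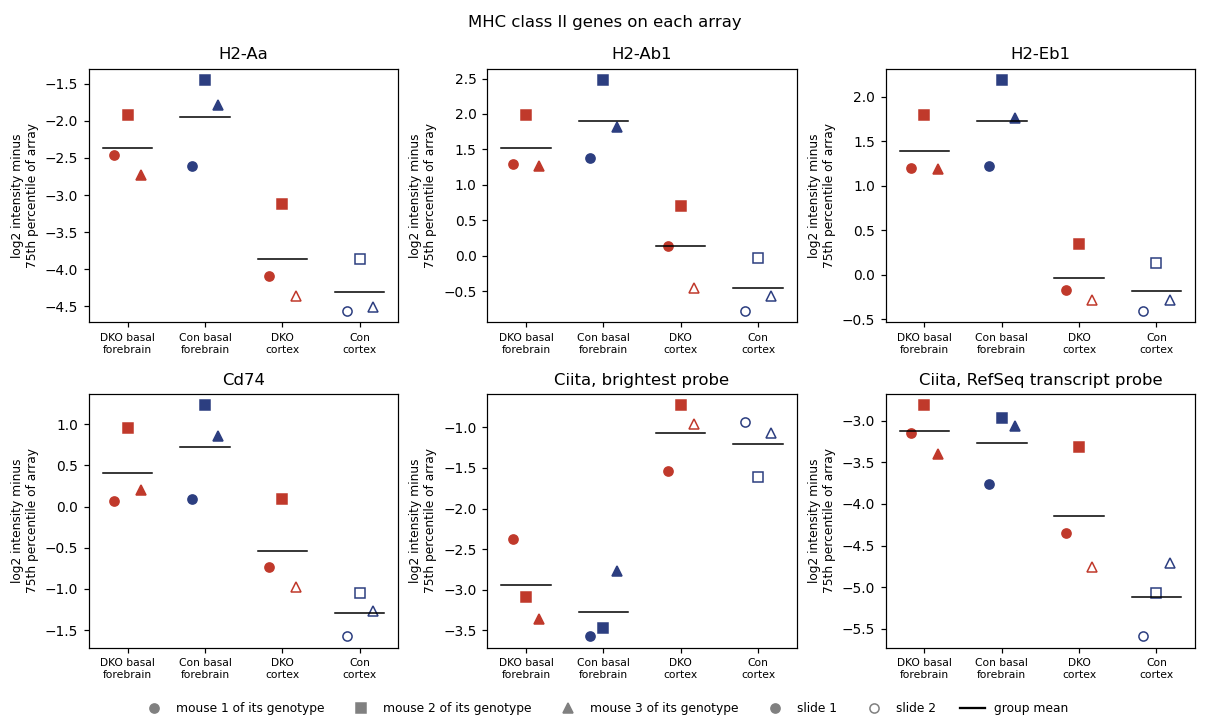
Levels (log2 intensity minus the array's 75th percentile) on the 12 arrays for H2-Aa, H2-Ab1, H2-Eb1 and Cd74 and for both Ciita probes that were above background on every array; symbols as in the plot of complement genes by array. H2-Aa, H2-Ab1, H2-Eb1 and Cd74 have higher group means in basal forebrain than in cortex in both genotypes, and the Ciita probes run in opposite directions.

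The class II genes varied together between mice. In Con basal forebrain, mouse 2 was highest for 6 of 7 genes and mouse 1 lowest for 7 of 7. In Con cortex mouse 2 was again highest for 6 of 7, and mouse 1 lowest for 5. In DKO mice, mouse 2 was highest for 5 of 7 genes in basal forebrain and for 7 of 7 in cortex, and mouse 3 was lowest for 6 and for 5. DKO mouse 2 is the DKO mouse whose sex-linked RNA matched its label.

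The cortex genotype differences depended on which DKO mice were in the fit. Without DKO mouse 3, 14 members were called in cortex (13 higher and 1 lower in DKO), but so were 37.4% of all genes, and the remaining DKO and Con arrays then lay on different slides, so that genotype and slide cannot be told apart. Without DKO mice 1 and 3, 12 members were called, all higher, beside 29.4% of all genes. That fit has 1 DKO array, on the other slide from the Con arrays, and takes its spread from the Con mice. With the slide as a block, or within slide 2 (also 1 DKO array, with the spread of the Con mice), no member was called in cortex. In the mean of both regions, 1 member was called without DKO mouse 3: Cfb, with a difference of 1.62 (adjusted p = 0.013, limma), where 0.654% of all genes were called. In the cortex part of that mean, genotype and slide again cannot be told apart.

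**Figure D3:**
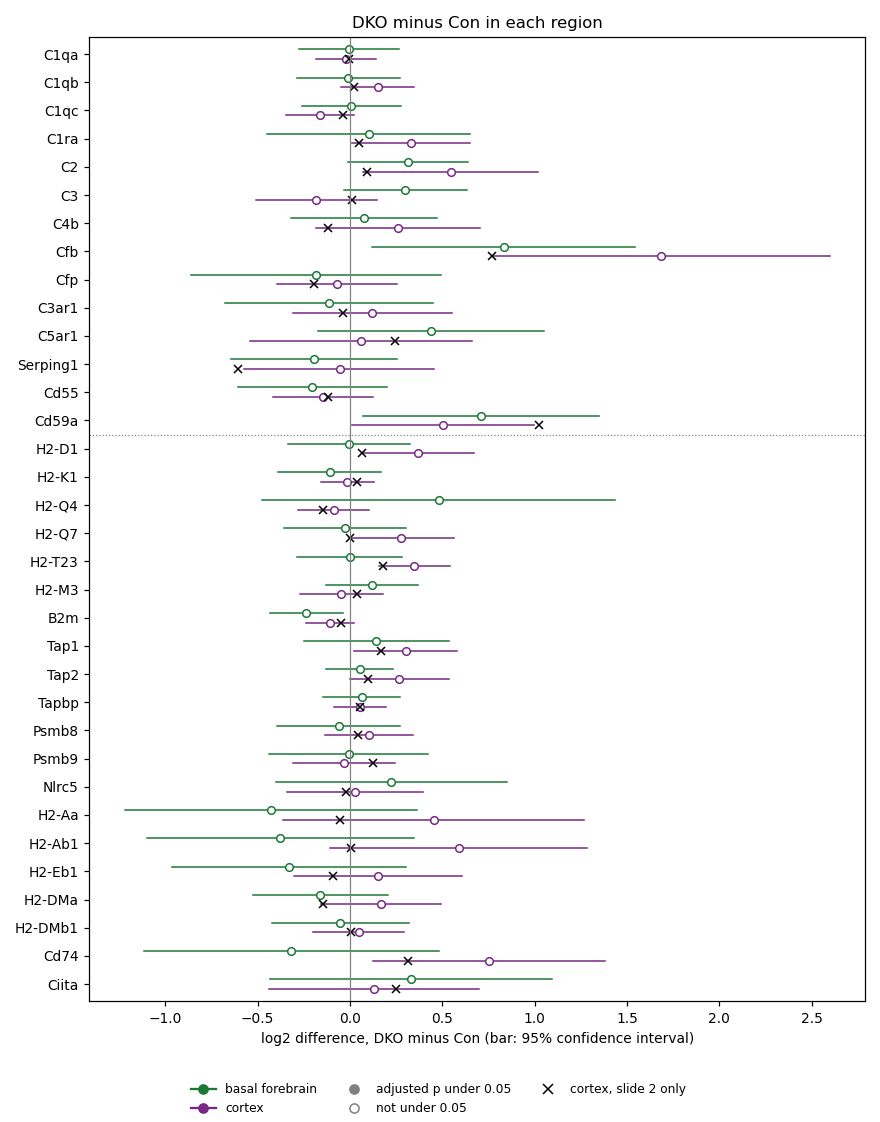
Log2 difference, DKO minus Con, with 95% intervals for the 34 genes in basal forebrain (green) and cortex (purple), n = 3 mice per genotype; crosses give the cortex difference within slide 2, from 1 DKO array. No gene passed an adjusted p of 0.05, Cfb lies farthest to the right in both regions, and most crosses lie nearer 0 than the cortex points.

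The mean levels of neutrophil and B-cell markers differed between the genotypes far more than the members did. The mean level of 7 neutrophil markers ranged from -2.25 to -1.18 in DKO basal forebrain against -4.57 to -3.89 in Con basal forebrain, and from -1.87 to -0.58 in DKO cortex against -4.58 to -3.47 in Con cortex. The mean of 7 B-cell markers ranged from -4.10 to -3.48 in DKO basal forebrain against -7.03 to -7.00 in Con basal forebrain, and from -4.67 to -3.65 against -6.91 to -6.57 in cortex. On each Con array this mean lay below the lowest level of any probe well above background (-6.852 to -6.245). The size of the B-cell gap is therefore not settled. Of the B-cell markers, 6 of 7 tested were called higher in the mean of both regions, where 0.156% of all genes were called. The mean of the microglial markers was 2.01 to 2.19 in DKO basal forebrain and 2.10 to 2.19 in Con basal forebrain, and 1.47 to 2.24 in DKO cortex against 2.22 to 2.24 in Con cortex. The mean of 6 T-cell markers overlapped between genotypes, at -3.25 to -2.78 in DKO against -3.35 to -2.67 in Con basal forebrain. It overlapped in cortex too, at -3.69 to -2.99 against -3.445 to -3.15. The mean of the dendritic and macrophage markers also overlapped in both regions. That of the red-cell markers was higher on every DKO than on any Con array of the same region. So was the mean of 8 endothelial markers, at 1.083 to 1.456 in DKO against 0.882 to 1.002 in Con basal forebrain. In cortex the endothelial mean was 1.168 to 1.197 against 0.758 to 0.997. The means of the astrocyte, choroid plexus and neuron lists overlapped between genotypes in both regions. The part of these cells in the member values was not tested.

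**Figure D4:**
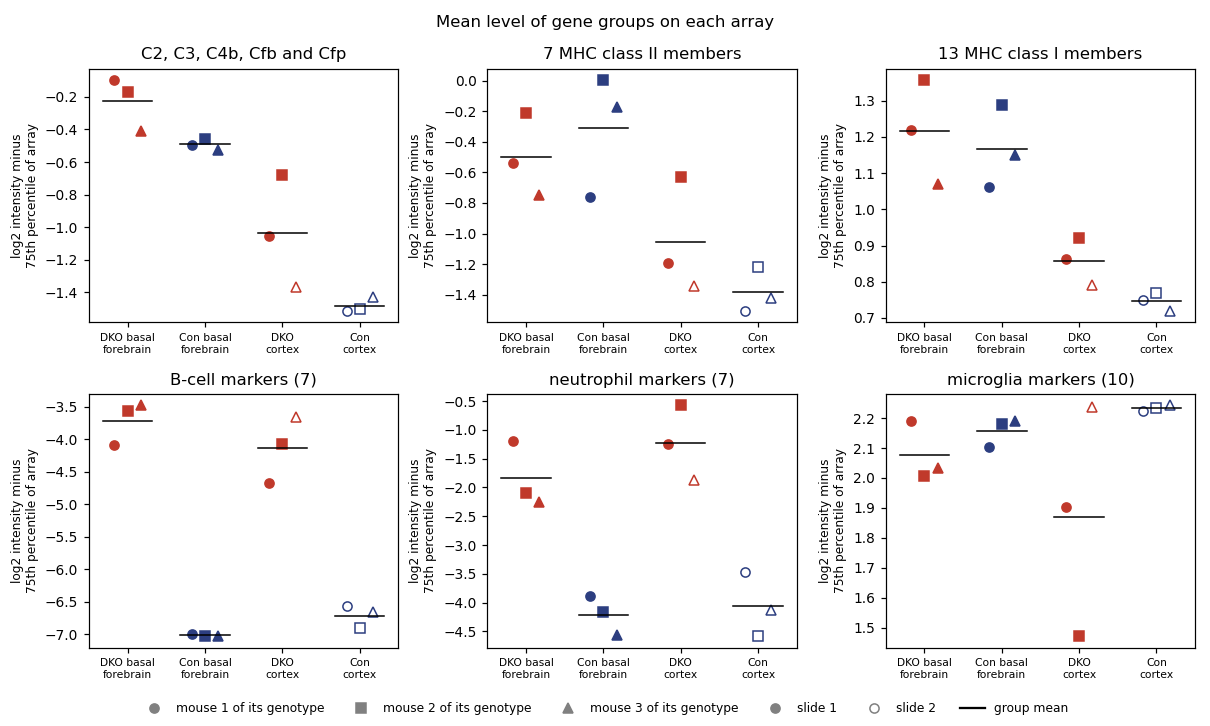
Mean level (log2 intensity minus the array's 75th percentile) of the complement components, the 7 class II genes, the 13 class I genes and the B-cell, neutrophil and microglial marker lists on each array; symbols as in the plot of complement genes by array. The B-cell and neutrophil lists separate DKO from Con in both regions, whereas the class II list overlaps in both regions, with a higher group mean in DKO than in Con cortex.

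Whether the genotype differences themselves differed between regions was tested as an interaction. No member was called, and 0% of all genes were called by limma (8.36% had an unadjusted p under 0.05). At an unadjusted p under 0.05 there were 3 members: Cd74 with -1.07 (SE 0.47), H2-T23 with -0.35 (SE 0.15) and C3 with 0.48 (SE 0.20), each with an adjusted p of 0.56. Averaging all probes of a gene gave -0.03 for H2-T23 and 0.176 for C3. With the slide as a block, Cd74, H2-T23 and C3 were at -0.635, -0.182 and 0.286. The opposite signs of the class II genes in the regions are therefore not shown to be a difference between regions.

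The larger contrast in these genes was between regions. In DKO mice 23 of 34 members were called between basal forebrain and cortex, 18 higher and 5 lower in basal forebrain, where 39.9% of all genes were called (19.3% higher and 20.6% lower). In Con mice 21 were called, 18 higher and 3 lower in basal forebrain, where 49% of all genes were called (18.5% higher and 30.5% lower). The median member was higher in basal forebrain by 0.37 in DKO and 0.46 in Con mice, beside all-gene medians of -0.04 and -0.09. Of the calls, 17 were made in both genotypes, 15 higher and 2 lower, which is 17 of 23 DKO calls and 17 of 21 Con calls. Of all genes, 30.1% were called in the same direction in both genotypes, 13.1% of all genes as higher. The member counts rest on the brightest probes. A further probe above background on every array had the opposite sign for Ciita and Tapbp, both among the shared calls. The same held for B2m and Nlrc5, both among the DKO calls.

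The largest positive regional differences in Con mice, where region and slide cannot be told apart, were those of H2-Aa, H2-Ab1, Cd74 and H2-Eb1. H2-Aa, H2-Eb1 and H2-Ab1 also led the positive differences in DKO mice. There the C1ra difference was larger in size than that of H2-Ab1 (-1.425 against 1.385), and C2 (1.303) exceeded Cd74 (0.95). H2-Aa, the alpha chain of I-A, was at -2.46, -1.92 and -2.73 in DKO basal forebrain against -4.08, -3.12 and -4.37 in DKO cortex. In Con mice it was at -2.60, -1.45 and -1.78 in basal forebrain against -4.56, -3.86 and -4.51 in cortex. No basal forebrain value fell into the range of the cortex values of its genotype. The difference was 1.49 (SE 0.37, adjusted p = 0.0074, limma) in DKO and 2.37 (SE 0.37, adjusted p = 0.00036, limma) in Con mice.

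H2-Ab1 was at 1.29, 1.99 and 1.27 in DKO basal forebrain and at 1.38, 2.48 and 1.82 in Con basal forebrain, above every cortex array of its genotype. Basal forebrain exceeded cortex by 1.39 (SE 0.33) in DKO and by 2.35 (SE 0.33) in Con mice, and the 4 probes of H2-Ab1 gave 1.34 to 1.50 and 2.27 to 2.35. H2-Eb1, the beta chain of I-E, was higher by 1.43 (SE 0.25) and 1.91 (SE 0.25), and H2-DMb1, a chain of the peptide-loading chaperone, by 0.45 and 0.55 (SE 0.14 each). Cd74 was higher by 0.95 (SE 0.33, adjusted p = 0.039, limma) in DKO mice, where the groups overlapped, and by 2.02 (SE 0.33) in Con mice. H2-DMa, the partner chain of H2-DMb1, was not called, at 0.05 and 0.38. Within slide 1, H2-Ab1 and H2-Eb1 stayed called in DKO mice. H2-Aa, H2-DMb1 and Cd74 did not, with limma adjusted p of 0.053, 0.088 and 0.19. Of 17 alternatives, 8 lost the DKO call of Cd74.

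Ciita, the class II coactivator, was the exception, and its probes disagreed. The brightest probe, designed on a cDNA clone at chr16:10512788-10512847 (mm9), was at -2.37, -3.09 and -3.37 in DKO basal forebrain against -1.54, -0.73 and -0.96 in DKO cortex, and was called lower by limma in both genotypes (-1.87 and -2.07, SE 0.31 each). A dimmer probe on a RefSeq transcript, at chr16:10526458-10526517 (mm9), was at -3.15, -2.82 and -3.40 in DKO basal forebrain against -4.35, -3.32 and -4.76 in DKO cortex. In Con mice that probe was at -3.76, -2.97 and -3.07 in basal forebrain against -5.59, -5.07 and -4.71 in cortex. It was higher in basal forebrain by 1.02 and 1.86, the direction of H2-Aa, H2-Ab1, H2-Eb1 and Cd74. Ciita therefore has no settled direction here.

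**Figure D5:**
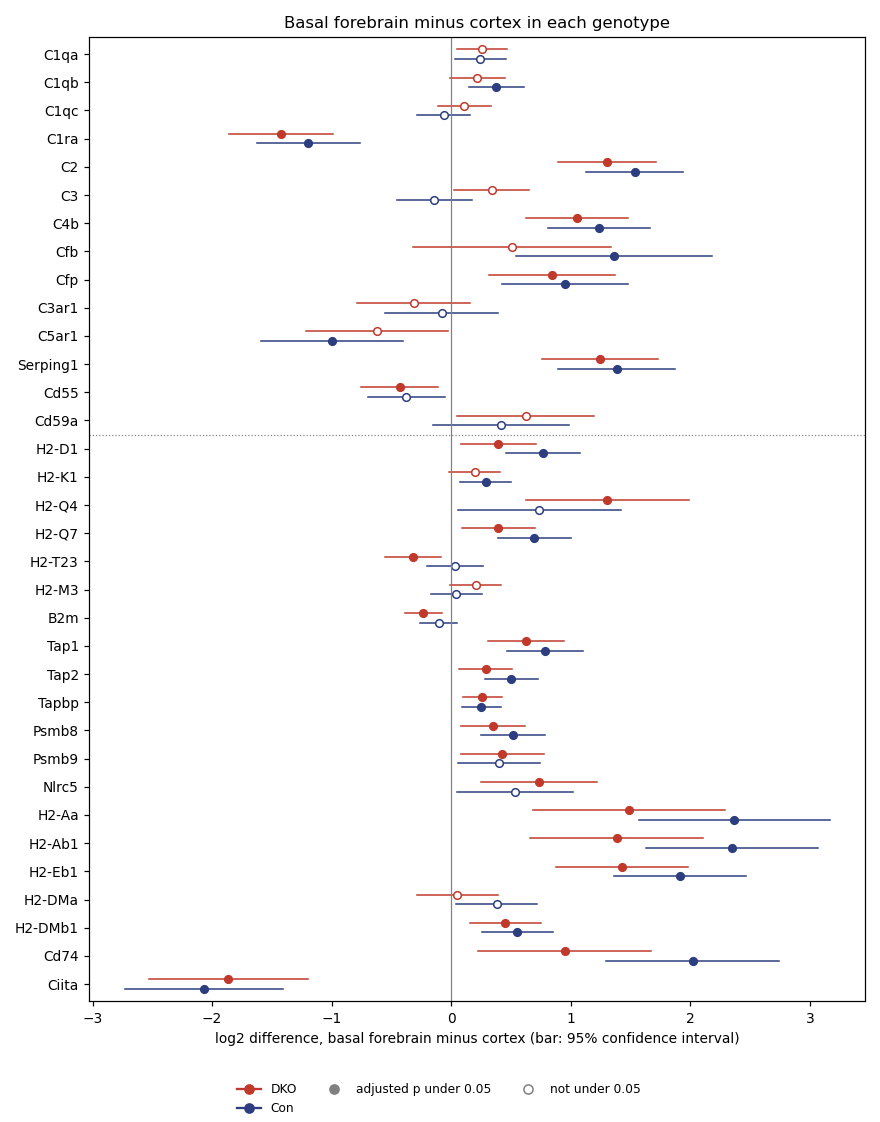
Log2 difference, basal forebrain minus cortex, with 95% intervals for the 34 genes in DKO (red) and Con (blue) mice, n = 3 per group; filled points have an adjusted p under 0.05. H2-Aa, H2-Ab1, H2-Eb1, C2, C4b and Serping1 lie above 1 in both genotypes, and C1ra and the brightest Ciita probe lie below -1.

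Class I processing genes were called higher in basal forebrain throughout in DKO mice, 6 of 6, and 4 of 6 in Con mice. Of all genes, 19.3% were called higher in DKO and 18.5% in Con mice. With the slide as a block, no class I processing gene was called in Con mice. Most of these DKO calls depended on the setting: within slide 1 Tap1 was called and the others had limma adjusted p from 0.064 to 0.18, and of 17 alternatives 13 lost the call of Psmb9, 11 that of Psmb8, 10 that of Tap2, 5 each that of Tapbp and Nlrc5, and 2 that of Tap1. Tap1 was higher by 0.63 in DKO and 0.79 in Con mice (SE 0.15 each), and Tap2 by 0.29 and 0.50 (SE 0.10 each). Psmb8 was higher by 0.35 and 0.52 and Psmb9 by 0.43 and 0.40, the last not called in Con mice (adjusted p = 0.051, limma). Nlrc5 was higher by 0.73 in DKO mice and had a value of 0.54 in Con mice (adjusted p = 0.063, limma). A second Nlrc5 probe had the opposite sign, -0.43 and -0.81, as did a second Tapbp probe, which gave -0.06 and -0.05 where the brightest gave 0.26 and 0.25.

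The class I chains were mixed. H2-D1 was higher in basal forebrain by 0.39 in DKO and 0.77 in Con mice (SE 0.14 each), and H2-Q7 by 0.39 and 0.70 (SE 0.14 each). Of 17 alternatives, 10 lost the DKO call of H2-D1 and 9 that of H2-Q7. With the slide as a block their Con values were 0.31 and 0.28, and neither was called. H2-Q4, a gene of the Q region, was higher by 1.31 (SE 0.31) in DKO mice and had a value of 0.74 in Con mice (adjusted p = 0.068, limma). H2-K1 was called in Con mice alone, at 0.29, with 0.19 in DKO mice. H2-T23 was lower by 0.32 in DKO mice, a call lost in 8 of 17 alternatives, and was at 0.04 in Con mice. H2-M3 was not called. B2m was lower by 0.23 in DKO mice with its brightest probe and was at -0.10 in Con mice, but its second probe gave 0.85 and 0.79 and the mean over both was 0.31 in DKO mice, so that its direction is unsettled. Calls in 1 genotype alone are not shown to differ between genotypes, since no interaction was called.

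Among the complement components, C2 was higher in basal forebrain by 1.30 (SE 0.19, adjusted p = 0.00022, limma) in DKO and 1.53 (SE 0.19, adjusted p = 6.4e-05, limma) in Con mice. C4b was at 2.51, 2.21 and 1.81 in DKO basal forebrain against 1.12, 1.51 and 0.74 in DKO cortex. In Con mice C4b was at 2.15, 2.13 and 2.00 in basal forebrain against 0.95, 1.00 and 0.64 in cortex. The groups did not overlap in either genotype, with differences of 1.05 and 1.23 (SE 0.20 each), and its second probe gave 1.14 and 1.36. C4b has a near copy, C4a, and the C4a probe gave 1.34 and 2.08.

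Serping1, the inhibitor of the C1 proteases, was at 0.82, 1.12 and 0.37 in DKO basal forebrain against -0.15, -0.25 and -1.02 in DKO cortex, and at 1.01, 0.79 and 1.08 in Con basal forebrain against -0.45, -0.55 and -0.26 in Con cortex. It was higher by 1.25 and 1.38 (SE 0.22 each). Its target C1ra ran the other way: -1.75, -2.02 and -2.63 in DKO basal forebrain against -0.63, -0.50 and -0.99 in DKO cortex, and -2.36, -2.11 and -2.24 in Con basal forebrain against -1.05, -1.10 and -0.97 in Con cortex. C1ra was lower by 1.43 and 1.20 (SE 0.20 each), with a limma adjusted p of 0.00017 in DKO and 0.00058 in Con mice. Cfp was higher by 0.84 and 0.95 (SE 0.24 each), with overlap in DKO mice, where mouse 1 had -0.37 in basal forebrain.

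C1qa, C1qb and C1qc, mainly microglial transcripts, differed little between regions, at 0.26, 0.22 and 0.11 in DKO mice and at 0.24, 0.38 and -0.06 in Con mice. Of these, C1qb in Con mice was called. Cfb was higher by 1.36 (SE 0.38, adjusted p = 0.012, limma) in Con mice and had a value of 0.51 (SE 0.38) in DKO mice. C3 was not called in either genotype with its brightest probe (0.34 and -0.14), and its dimmer second probe gave 1.28 and 1.41. C5ar1, the C5a receptor, was lower by 1.00 in Con mice and at -0.62 in DKO mice. Cd55, which speeds the decay of convertases, was lower by 0.43 in DKO mice and at -0.38 in Con mice. Its DKO call was lost in 9 of 17 alternatives.

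The slide layout limits the Con values: with the slide as a block, estimated from the DKO cortex arrays alone, 1 member was called in Con mice (C1ra, -1.62, where 10.8% of all genes were called), H2-Aa was at 1.61 (adjusted p = 0.15, limma), C4b at 0.66 and Cfb at -0.01. Within slide 1, which holds both regions of DKO mice 1 and 2 and the basal forebrain of mouse 3, 10 members were called in DKO mice (30.4% of all genes). Leaving out DKO mouse 1 gave 15 DKO calls and leaving out mouse 2 gave 12, where 35.3% and 24.4% of all genes were called. Pairing the regions by mouse left 23 DKO calls (40.1% of all genes), 20 of them the same, without Cd55, B2m and Psmb9 (adjusted p of 0.050, 0.052 and 0.076, limma) and with C1qa, C1qb and Cd59a (0.049, 0.041 and 0.013). In Con mice pairing gave 23 calls (49.5% of all genes), adding H2-Q4 and H2-DMa (adjusted p of 0.039 and 0.032, limma).

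Cell type markers were compared between regions as well. Of all genes, 19.3% were called higher and 20.6% lower in DKO mice, and 18.5% higher and 30.5% lower in Con mice. The 7 tested markers of dendritic cells and border macrophages were all above 0 in both genotypes, with 1 called in DKO and 3 in Con mice. Choroid plexus markers were far lower in basal forebrain, with mean levels of -3.39 to -2.10 against 0.16 to 1.38 in cortex, and 7 of 8 were called lower in DKO and 5 in Con mice. Of the 10 microglial markers 2 were called higher in DKO mice and 1 lower in Con mice, and 4 of 8 neuronal markers were called lower in DKO and 5 in Con mice. The DKO count of the dendritic and macrophage list and the counts of the microglial list were near or below the shares of all genes. The part of these cells in the regional differences was not tested.

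Other genes of both pathways, from lists of 40 and 37 symbols, were tested in the same comparisons. Between genotypes none was called in either region by limma. In cortex the smallest p values included those of Mbl2 (1.06), a lectin that starts complement, Masp1 (0.24) and C1rl (-0.38), and of H2-Q2 (0.33), Pdia3 (-0.31), the lysosomal reductase Ifi30 (0.58) and H2-Q10 (0.45). None of them was called. Between regions 5 other complement genes were called higher and 3 lower of 29 tested in DKO mice, and 9 higher and 2 lower of 30 in Con mice. Over all genes 19.3% were called higher and 20.6% lower in DKO mice, and 18.5% higher and 30.5% lower in Con mice, so the DKO share of this list was no higher than that of all genes. Of those called in both genotypes, C4a is given above and Colec12, a scavenger receptor, was higher by 1.20 and 0.89. Vitronectin (Vtn), an inhibitor of the terminal complex, was higher by 0.65 in DKO and 0.63 in Con mice. The complement inhibitor Csmd1 was lower by 0.76 and 0.65, and Srpx2, which blocks C1q at synapses in mice, by 1.53 and 0.92. In DKO mice alone Cpn1 was called higher (1.68) and C1rb, a copy of C1ra, lower (-0.74). In Con mice alone Masp2 (1.03), Mbl2 (0.82), Itgax (0.94), Cd93 (0.46) and Cr1l (0.20) were called higher.

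Of the other antigen presentation genes, 12 were called higher and 2 lower of 34 tested in DKO mice, and 14 higher and 2 lower of 33 in Con mice, beside the same 19.3% higher and 20.6% lower of all genes in DKO and 18.5% and 30.5% in Con mice. Cd1d1, which presents lipids, was higher by 1.54 and 1.66, the class I-like H2-Q1 by 1.17 and 1.32, and Mr1, which presents vitamin metabolites, by 0.56 and 0.52. Ctss, the protease that trims Cd74, was higher by 0.29 and 0.53. Psmb10, the third immunoproteasome subunit, ran against Psmb8 and Psmb9 and was lower by 0.42 and 0.44. The costimulatory ligand Cd80 was higher by 1.27 and 0.93, the Fc receptor Fcgrt by 0.53 and 0.52, H2-T10 by 0.46 and 0.48, H2-Bl by 0.45 and 0.75, Psme1, a proteasome activator subunit, by 0.33 and 0.27, and Rfxank, a subunit of the complex that binds MHC promoters, by 0.29 and 0.39. In DKO mice alone H2-T24 was called higher (0.50) and Rfxap, another subunit of that complex, lower (-0.25). In Con mice alone H2-Q10 (1.02), H2-Oa (0.69) and Ifi30 (0.60) were called higher and H2-Ob (-0.60) lower.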

How the data were processed

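Total RNA of basal forebrain and cortex from 6 mice was labelled with Cy3 and hybridised to 12 single-colour Agilent mouse arrays. Per the file headers, the authors' scanner output came from Agilent Feature Extraction 10.7.1.1 (protocol GE1_107_Sep09), and its deposited processed signal is a background-corrected intensity per spot. The authors' deposited series table holds normalized log2 values, used as an alternative. The members and lists were chosen with earlier results of these data known.

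Unflagged spots of a probe were averaged as log2 intensity, and each array's 75th percentile was subtracted. A gene entered if 1 or more groups had it well above background on every array, and was tested with limma 3.58.1 (R 4.3.3, lmFit and eBayes with trend), with Benjamini-Hochberg adjustment over all genes. Of all probes, 68.9% to 75.0% were well above background per array, and replicates correlated at 0.985 to 0.995. The text names all members and, from the other pathway lists, genes called in a comparison, otherwise up to 4 with the smallest p. Some genes of those lists are counted but not reported here by name. The fit, tested on simulated data with 200 changed genes, recovered 71% of 2-fold and 91% of 4-fold changes in basal forebrain, 54% and 95% in cortex, and 77% and 100% in the mean of both regions (23788 genes). The simulated arrays were drawn independently, for genes well above background on all 12 arrays. They had no slide effect, no sex difference and no link between the regions of a mouse. The recovery rates therefore need not hold for the real arrays. With 3 mice per group the number of arrays limits the precision. The same mice gave both regions, so regions pair by mouse, per the animal tags in the labels (r of same-mouse deviations from -0.087 to 0.39). DKO and Con mice share only a replicate number. The series table also has 12 columns of detection flags, not used here. Probe coordinates are mm9. Promoter sequences are RefSeq's.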

Additional observations from a re-analysis of the deposited data

How the results depend on the processing

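Between genotypes, no member was called in basal forebrain under any alternative run (background correction, scaling, dim-probe filter, probe averaging, variance model, the authors' values, left-out mice). In cortex, leaving out 1 mouse at a time gave 0 to 14 calls, the 14 without DKO mouse 3, and leaving out DKO mice 1 and 3 gave 12, from 1 DKO array. In the mean of both regions leaving out 1 mouse gave 0 to 1 calls. Between regions, leaving out 1 mouse gave 12 to 19 calls in DKO and 16 to 24 in Con mice. The share of all genes called in DKO mice moved too, from 39.9% with all arrays to 24.4% without DKO mouse 2. These ranges are therefore not read as changes of the members, and no share is given for the Con fits. Leaving out DKO mice 1 and 3 gave 9 DKO calls (13.1% of all genes) from 1 array per region, whose spread is assumed to be that of the Con groups, within slide 1 there were 10, and the slide as a block gave 1 Con call. Without DKO mouse 1 there were 15 DKO calls (35.3% of all genes), and without mouse 2 there were 12 (24.4%). Averaging all probes reversed B2m in DKO mice (0.31), C3 in Con mice (0.63) and H2-T23 in Con mice (-0.32), and the slide block reversed Cfb in Con mice (-0.012). The slide block changes the Con estimate because its slide effect comes from DKO cortex arrays, and the causes of the other changes were not tested.

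In all 17 alternatives C1ra, C2, C4b and Serping1 remained called between regions in DKO mice, and in Con mice C1ra did in all 16. Same-numbered DKO and Con mice did not all deviate together (r from -0.49 to 0.45 in basal forebrain and from -0.015 to 0.267 in cortex), and the replicate number as a block gave 0 member calls in each genotype comparison. With the mouse as a replicate block the region counts were 23 in each genotype. No value within a slide could be had for the Con region contrast or the interaction. The number of arrays limits the precision.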
